A study of Mus musculus with 8 samples.

Results

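The ribosomal protein genes of the cytosol were examined in mouse Hepa-1 hepatoma cells exposed to hexavalent chromium, Cr(VI). Members were taken by symbol: protein-coding genes whose name starts with Rpl or Rps followed by a digit, a or p, leaving out the Rps6k kinases, pseudogenes and symbols that end in l. This gave 83 of the 23403 genes in the count table, of which 43 encode large subunit proteins, 31 small subunit proteins and 3 the P stalk. The other 6 are the paralogs Rpl22l1 and Rpl7l1, the retrocopies Rps27rt, Rpl37rt and Rps23rg1, and Rps19bp1, which is named for binding a ribosomal protein. For RNA-seq, 2 libraries were made from Hepa-1 cells after 90 minutes with 25 µM Cr(VI), and 2 from control cells for which the labels give no exposure scheme. FAIRE-seq, which recovers nucleosome-depleted DNA, covered 1 library for each of 4 conditions: the same acute treatment, its control, a line passaged 20 times with Cr(VI) at 0.5 µM in the medium, and its control after the same number of passages. RNA-seq of the 0.5 µM regimen was not analysed here. Nothing in the labels says whether replicates came from separate cultures, so p-values measure only the spread between these libraries.

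Ribosomal proteins assemble with ribosomal RNA into the subunits that translate mRNA, and each is needed in a fixed ratio to the others. Their mRNAs are among the most abundant of a growing cell and start with a terminal oligopyrimidine (TOP) tract, through which mTOR complex 1 and Larp1 control their translation and stability. Many have processed pseudogenes elsewhere in the genome, so that reads can match more than one place.

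After TMM scaling, every subunit and stalk gene had more counts in both Cr(VI) libraries than in both controls, with Rplp0 as the exception when only library size was used, but the size of the difference depended on the library. The 83 genes took 6.98% and 9.63% of all gene counts in Cr(VI) libraries 1 and 2, against 5.52% and 5.65% in control libraries 1 and 2. Total counts were 32877791 and 32319676 in the Cr(VI) libraries and 33303645 and 37696116 in the controls. Large subunit genes took 3.61% and 4.91% of the counts in the Cr(VI) libraries and 2.90% and 2.97% in the controls. Small subunit genes took 2.89% and 4.02% against 2.20% and 2.24%. The counts on small subunit genes were 0.802 and 0.817 times those on large subunit genes with Cr(VI), and 0.757 and 0.754 times in controls.

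**Figure D1:**
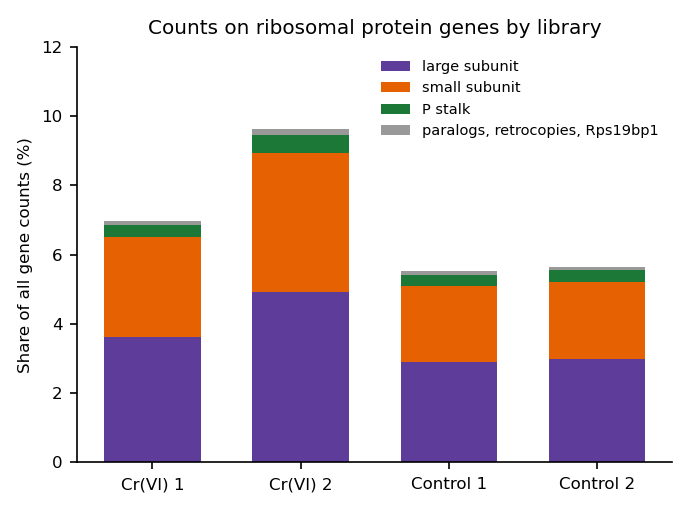
Share of all gene counts on ribosomal protein genes (%, y axis) in each RNA-seq library (x axis), with bars stacked by subunit. The Cr(VI) bars reach 6.98% and 9.63%, and the control bars 5.52% and 5.65%.

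The 2 Cr(VI) libraries stood far apart from each other and the controls did not. Over genes with at least 20 summed counts, the chi-square for a difference beyond library size averaged 123 per gene between the Cr(VI) libraries and 2.15 between the controls, where counting noise alone gives about 1. Its median was 21.2 and 0.695 over these genes, and 1410 and 4.86 over the members, so the controls also differed more on the members. Counts were scaled with TMM factors to CPM, the counts per 1000000 counts of a library, and the log2 of CPM over the mean control CPM was taken for each library. Its median over the 83 genes was 0.32 in Cr(VI) library 1 and 0.98 in Cr(VI) library 2. Over all 13619 genes with enough counts to be tested, these medians were 0.00 and -0.04. In 82 of the 83 genes Cr(VI) library 2 was above Cr(VI) library 1.

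All 83 genes passed the filter on low counts. Their median log2 fold change, Cr(VI) minus control, was 0.69, against 0.00 over all tested genes, and 82 of 83 values were above 0, against 6761 of 13619. Without Cr(VI) library 2 the median was 0.32, and without Cr(VI) library 1 it was 0.99. Both Cr(VI) libraries lay above both controls in 82 of the 83 genes, where 32.2% of all tested genes did so. With library size as the only scaling this count was 81, since Rplp0 then overlapped. By edgeR's quasi-likelihood test with Benjamini-Hochberg adjustment 0 of the 83 passed an adjusted p of 0.05, while 1.78% of all tested genes passed as higher. At an unadjusted p under 0.05, 39 of the 83 were higher and 0 lower, where 15.6% of all tested genes were higher and 15.1% lower. With control library 1 or 2 left out, the spread within groups came only from the Cr(VI) libraries, which stood far apart. Then 3 of the 83 were higher at that threshold, with 637 of 13617 and 663 of 13615 of all tested genes, while the members' median log2 fold change was 0.65 and 0.69. DESeq2 called 39 of the 83 as higher at an adjusted p of 0.05, with 7.76% of all tested genes called as higher. Of these 39 genes, 34 also had an unadjusted edgeR p under 0.05.

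**Figure D2:**
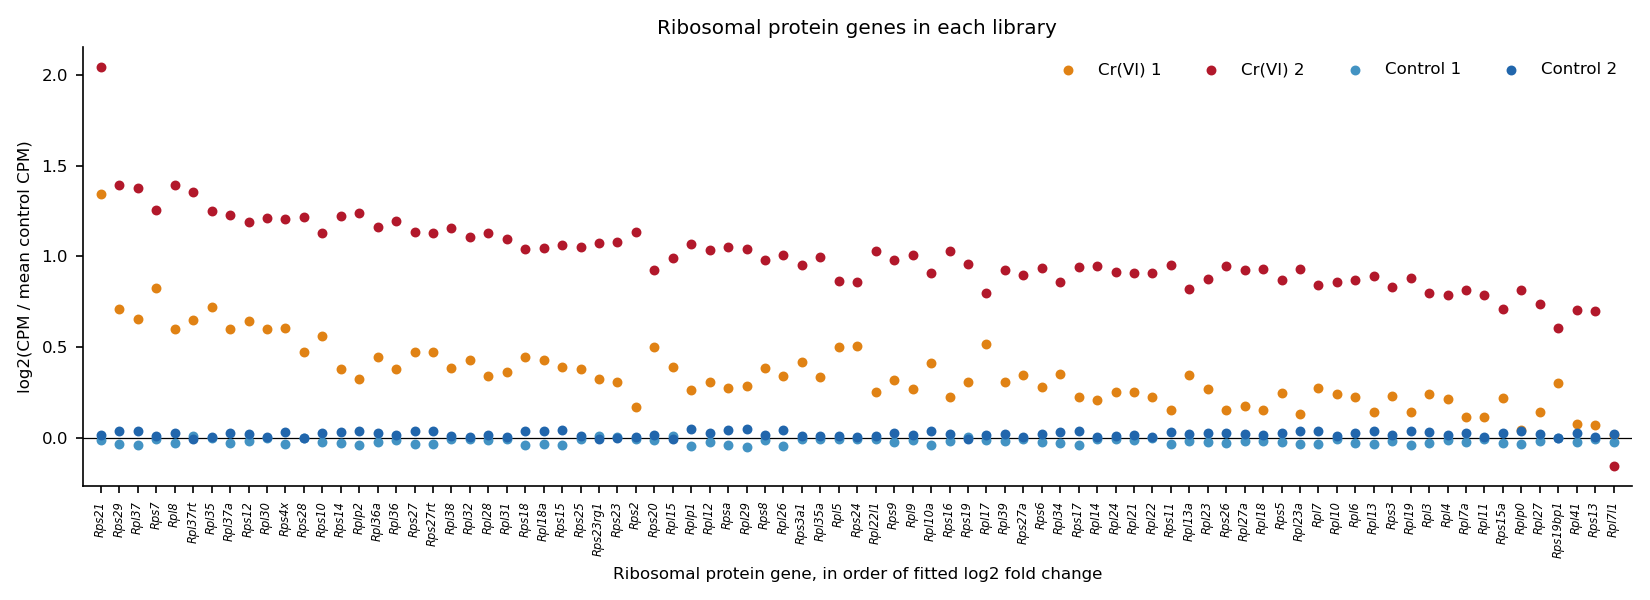
Log2 of CPM over the mean control CPM (y axis) for each of the 83 ribosomal protein genes (x axis, in order of fitted log2 fold change), with a point for each library. After TMM scaling both Cr(VI) points lie above both control points for every gene but Rpl7l1 (with library size only, also but Rplp0), and Rps21 is highest at a fitted 1.74.

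Among the small subunit genes Rps21, on chromosome 2 from 180257379 to 180258444, had the largest difference. Its CPM was 1430 and 2329 in the Cr(VI) libraries and 559.1 and 569.0 in the controls. The groups did not overlap, and the lower Cr(VI) library was 2.54 times the control mean. The log2 fold change was 1.74 (SE 0.29), with an adjusted p of 0.0539 by edgeR and 1.58e-08 by DESeq2. By log2 fold change it ranked 439 of all 13619 tested genes. Rps21 encodes a small protein of the small subunit.

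Rps29, a zinc-binding protein of the small subunit, had a CPM of 426.3 and 686.5 with Cr(VI) and 254.2 and 267.2 in controls. Its log2 fold change was 1.09 (SE 0.26, edgeR adjusted p = 0.0884). Rps7, a protein that takes part in the maturation of small subunit RNA, had a CPM of 673.7 and 905.2 against 377.7 and 381.3. Its log2 fold change was 1.06 (SE 0.20, edgeR adjusted p = 0.0607). Of the 5 genes with the largest differences Rps7 had the closest Cr(VI) libraries. Rpsa, which is also known as a laminin receptor, had a CPM of 1303 and 2238 with Cr(VI) and 1047 and 1109 in controls, and a log2 fold change of 0.72 (SE 0.31, edgeR adjusted p = 0.204). The small subunit gene with the smallest difference was Rps13, at 406.6 and 629.6 CPM against 386.4 and 389.2, a log2 fold change of 0.42 (SE 0.25, edgeR adjusted p = 0.312). Without Cr(VI) library 2 the median log2 fold change of small subunit genes was 0.375, and without Cr(VI) library 1 it was 1.037. Over the 31 small subunit genes the median log2 fold change was 0.72. By edgeR 0 were called, where 1.78% of all tested genes were called as higher. At an unadjusted p under 0.05, 16 were higher, where 15.6% of all tested genes were. Fewer were higher with control library 1 or 2 left out, as among all tested genes.

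The 43 large subunit genes had a median log2 fold change of 0.65, with a range from 0.42 to 1.06. Their median was 0.304 without Cr(VI) library 2 and 0.937 without Cr(VI) library 1. By edgeR 0 were called, where 1.78% of all tested genes were called as higher. At an unadjusted p under 0.05, 20 were higher, where 15.6% of all tested genes were. Fewer were higher with control library 1 or 2 left out, as among all tested genes. Rpl37, a zinc-binding protein, had a CPM of 1094 and 1807 with Cr(VI) and 677.1 and 713.0 in controls, and a log2 fold change of 1.06 (SE 0.29, edgeR adjusted p = 0.105). Rpl8, which lies near the peptidyl transferase centre, had a CPM of 1048 and 1819 against 678.8 and 705.2, and a log2 fold change of 1.05 (SE 0.31, edgeR adjusted p = 0.118). Rpl35 followed with 548.7 and 792.8 CPM against 331.9 and 333.7 (log2 fold change 1.01, SE 0.22, edgeR adjusted p = 0.0758). For each of these genes the lower Cr(VI) library was above both controls. The smallest differences were those of Rpl41 and Rpl27. Rpl41, which encodes a very short and basic protein, had a CPM of 1587 and 2446 against 1476 and 1531, so that Cr(VI) library 1 was only 1.06 times the control mean. Rpl27 had 762.1 and 1151 CPM against 680.5 and 699.7, a log2 fold change of 0.47 (SE 0.25).

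Rpl5 and Rpl11 form a particle with a small ribosomal RNA that is known to bind MDM2. Rpl5 had a CPM of 813.0 and 1044 with Cr(VI) and 570.4 and 577.7 in controls, a log2 fold change of 0.69 (SE 0.19, edgeR adjusted p = 0.102). Rpl11 had a CPM of 547.5 and 872.8 against 503.6 and 508.1, a log2 fold change of 0.49 (SE 0.26, edgeR adjusted p = 0.275). In Cr(VI) library 1 Rpl5 was 1.42 times and Rpl11 1.08 times its control mean.

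The P stalk, which recruits translation factors to the large subunit, is built from Rplp0, Rplp1 and Rplp2. Rplp0 had a CPM of 2105 and 3594 with Cr(VI) and 1989 and 2092 in controls. Its value in Cr(VI) library 1 was 1.03 times the control mean, above the higher control by less than the controls differed from each other. Rplp1 had 703.2 and 1230 CPM against 567.7 and 605.3, and Rplp2 had 576.2 and 1088 against 447.7 and 472.4. The log2 fold changes were 0.48 (SE 0.32) for Rplp0, 0.72 (SE 0.31) for Rplp1 and 0.85 (SE 0.34) for Rplp2. By edgeR 0 of the 3 passed the adjusted threshold and 0 had an unadjusted p under 0.05, where 15.6% of all tested genes were higher at the latter. DESeq2 called Rplp2, with an adjusted p of 0.0362, and 7.76% of all tested genes as higher.

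The paralogs differed from each other. Rpl22l1, a relative of Rpl22, had a CPM of 59.9 and 102.5 with Cr(VI) and 50.0 and 50.5 in controls (log2 fold change 0.69, SE 0.28). Rpl7l1, a relative of Rpl7, had a CPM of 157.5 and 139.6 against 153.4 and 158.2, the only member whose groups overlapped after TMM scaling. Its log2 fold change was -0.07 (SE 0.12), and without Cr(VI) library 2 it was 0.014. Rps19bp1 had a CPM of 37.98 and 46.82 against 30.84 and 30.82, and a log2 fold change of 0.46 (SE 0.15).

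Several members have retrocopies or pseudogenes whose counts were in a nearly fixed proportion to those of the parent gene. The retrocopy Rps27rt had 12907 and 17459 counts with Cr(VI) and 9327 and 11029 in controls, which was 99.5% to 99.6% of the counts on Rps27 in each library. Rps23rg1 held 68.9% to 69.8% of the counts on Rps23, and Rpl37rt 4.03% to 4.30% of those on Rpl37. Among copies outside the symbol rule, Rpl34-ps1 held 99.1% to 99.3% of the counts on Rpl34 and Rpl31-ps12 60.0% to 60.5% of those on Rpl31. How reads that match several places were counted is not given in the sources used here, so counts on these members and their copies are uncertain, and sharing of reads between them was not measured. RefSeq names 319 pseudogenes after 63 of the members. Across the 83 members the number of named pseudogenes and the log2 fold change had a Spearman rho of -0.04, given as a description since genes are not replicates.

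The level of a gene was compared with that of other genes only as CPM per kb of exon. In controls the highest levels were those of Rpl41 at 3348, Rps2 at 2278, Rps26 at 1978, Rpl19 at 1837 and Rps14 at 1647 CPM per kb. With Cr(VI) they were 4492, 3785, 3003, 2709 and 2993. Rps21 moved from place 25 at 1000 CPM per kb to place 3 at 3332 CPM per kb. The lowest levels in controls were 37.1 for Rps19bp1, 38.4 for Rpl37rt and 59.8 for Rpl7l1. Over the 77 subunit and stalk genes, levels spanned 39.0-fold in controls and 34.7-fold with Cr(VI), and the order of the genes in the 2 groups had a Spearman rho of 0.972. Exon length was the union of a gene's curated RefSeq transcripts (NM or NR), or of all its annotated transcripts where none was curated. It is long for genes with long alternative transcripts such as Rps15a (5136 bp) and Rps20 (3446 bp), which lowers their level per kb.

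**Figure D3:**
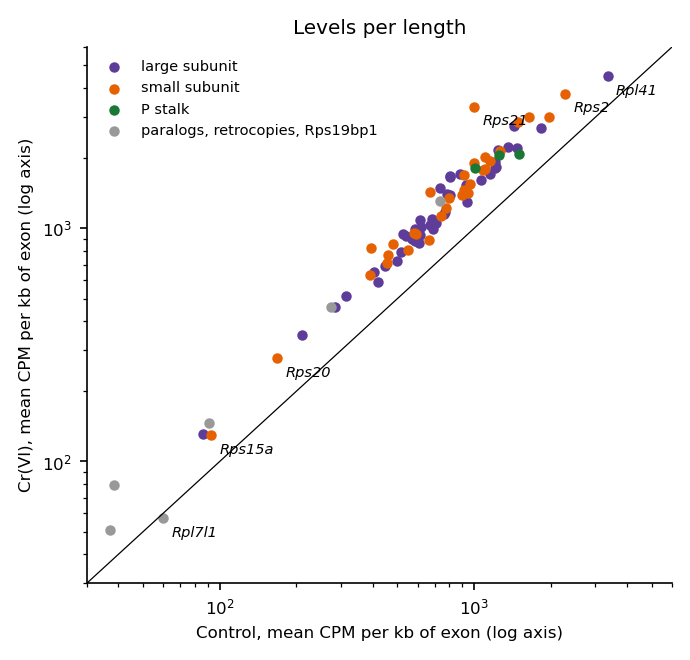
Mean CPM per kb of exon in Cr(VI) libraries (y axis) against controls (x axis), both on log axes, with a point for each ribosomal protein gene and the line of equal levels. Rps21 lies farthest above the line (1000 and 3332 CPM per kb), and Rpl7l1 is the only point below it.

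Start sites are shown for the 3 members with the highest levels per kb and for the 3 with the largest differences. Promoters from RefSeq, 250 bases before and 50 after a start, matched 63 of the 83 members, and Rps29 had no entry. Only the first promoter entry of each gene was used, for the lines below and for the motifs, and a gene can have other annotated starts. Each line holds 15 bases before and 15 after the start of that entry on build GRCm38.p6, with the longest pyrimidine run in capitals. Rpl41 lies on the minus strand at chr10:128549154-128549183, Rps2 on the plus strand at chr17:24720048-24720077, Rps26 on the minus strand at chr10:128626492-128626521, Rps21 on the plus strand at chr2:180257364-180257393 and Rpl37 on the plus strand at chr15:5116598-5116627.
Rpl41: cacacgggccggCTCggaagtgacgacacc
Rps2: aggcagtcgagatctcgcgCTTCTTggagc
Rps26: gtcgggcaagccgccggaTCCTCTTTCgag
Rps21: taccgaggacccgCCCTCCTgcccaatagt
Rpl37: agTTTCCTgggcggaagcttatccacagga
The runs were 3, 6, 9, 7 and 6 bases long in that order, and began at positions -3, 5, 4, -2 and -13 from the start. Only the run of Rps21 spans the annotated start, and where transcripts start in these cells was not measured here. Over the 63 members the median of the longest run in this window was 6 bases, against 4 over all 27025 genes with a promoter. A run of at least 8 bases was present in 25 members (39.7%), in 11.9% of all genes with a promoter and in 9 of 69 mitochondrial ribosomal protein genes. The 6 letters CCGGAA, on either strand, were found in 31 members (49.2%), against 15.2% of all promoters, 27.8% of those of tested genes and 56.5% of those of mitochondrial ribosomal protein genes. CACGTG was found in 7.94% of members and 7.24% of all promoters, and TGANTCA in 3.17% and 7.93%. In promoters of tested genes these were 9.93% and 5.69%.

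Other genes of translation were followed in lists. Of 9 ribosomal proteins outside the symbol rule 5 had enough counts to be tested, and their median log2 fold change was 0.68. By edgeR 0 of the 5 were called and 2 were higher at an unadjusted p under 0.05, or 0 with control library 1 or 2 left out, and DESeq2 called 2 as higher. Fau, a ubiquitin-like fusion that carries a small subunit protein, had a CPM of 725.4 and 1213 with Cr(VI) and 475.4 and 496.1 in controls. The 18 other TOP mRNAs had a median of 0.49, with 17 of 18 values above 0, and 11 of them are also translation factors. With 1 library left out these medians ran from 0.29 to 0.93 outside the rule and from 0.25 to 0.70 for the other TOP mRNAs. Gas5, a non-coding host of small nucleolar RNAs with a TOP tract, rose from 65.5 and 64.4 CPM in controls to 128.2 and 162.9 with Cr(VI), a log2 fold change of 1.16 (SE 0.15, edgeR adjusted p = 0.0393). It was the only gene of that list called by edgeR, where 5 were higher at an unadjusted p under 0.05, or 1 with control library 1 or 2 left out, and DESeq2 called 3 as higher. Without control library 1 its log2 fold change was 1.15 (edgeR adjusted p = 0.125) and without control library 2 it was 1.13 (edgeR adjusted p = 0.142), with the spread from the Cr(VI) libraries alone. Among all tested genes 15.6% were higher at an unadjusted p under 0.05, 637 of 13617 and 663 of 13615 with those controls left out, and 7.76% by DESeq2.

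Lists farther from the ribosome had medians nearer to that of all genes. For 54 translation factors the median log2 fold change was 0.18, for 51 ribosome biogenesis genes 0.12 and for 15 genes of RNA polymerase I 0.16. By edgeR 0 genes of these lists were called. At an unadjusted p under 0.05, edgeR gave 12 higher and 4 lower translation factors, 5 higher and 3 lower biogenesis genes, and 4 higher and 2 lower polymerase genes, against 15.6% higher and 15.1% lower among all tested genes. With control library 1 or 2 left out 1 translation factor was higher, and 0 biogenesis and 0 polymerase genes differed at that threshold. DESeq2 called 4 translation factors as higher, 1 biogenesis gene in each direction and 1 polymerase gene as higher. With 1 library left out the medians ran from 0.084 to 0.33 for translation factors, from -0.10 to 0.30 for biogenesis and from 0.070 to 0.17 for the polymerase. With library size only the biogenesis median was -0.0082, where that of all genes was -0.11. The 15 genes of mTOR complex 1 and its effectors had a median of -0.19, with 0 called by edgeR, 1 higher and 2 lower at an unadjusted p under 0.05, and 1 called as higher by DESeq2, and its median ran from -0.21 to -0.067 with 1 library left out. With control library 1 or 2 left out edgeR called 1 of them as higher, and 105 of 13617 and 100 of 13615 of all tested genes. The 78 mitochondrial ribosomal protein genes, whose products form the ribosome of that organelle, had a median of -0.13 and 26 values above 0. At an unadjusted p under 0.05, edgeR gave 2 higher and 14 lower, or 0 and 3 with control library 1 or 2 left out, and DESeq2 called 3 as lower. Among all tested genes 15.1% were lower by edgeR, 838 of 13617 and 840 of 13615 with those controls left out, and 7.46% by DESeq2. By edgeR 1 was called: Mrpl17 fell, from 93.9 and 98.7 CPM to 51.5 and 59.5 (log2 fold change -0.80, SE 0.12, edgeR adjusted p = 0.0486), where 2.85% of all tested genes were called as lower. Its log2 fold change was -0.77 with upper-quartile scaling (edgeR adjusted p = 0.0512), -0.85 without control library 1 (0.289) and -0.78 without control library 2 (0.369), the last 2 with the spread from the Cr(VI) libraries alone. The median of the mitochondrial list was 0.0083 without Cr(VI) library 1 and -0.24 without Cr(VI) library 2. No test between lists was made.

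**Figure D4:**
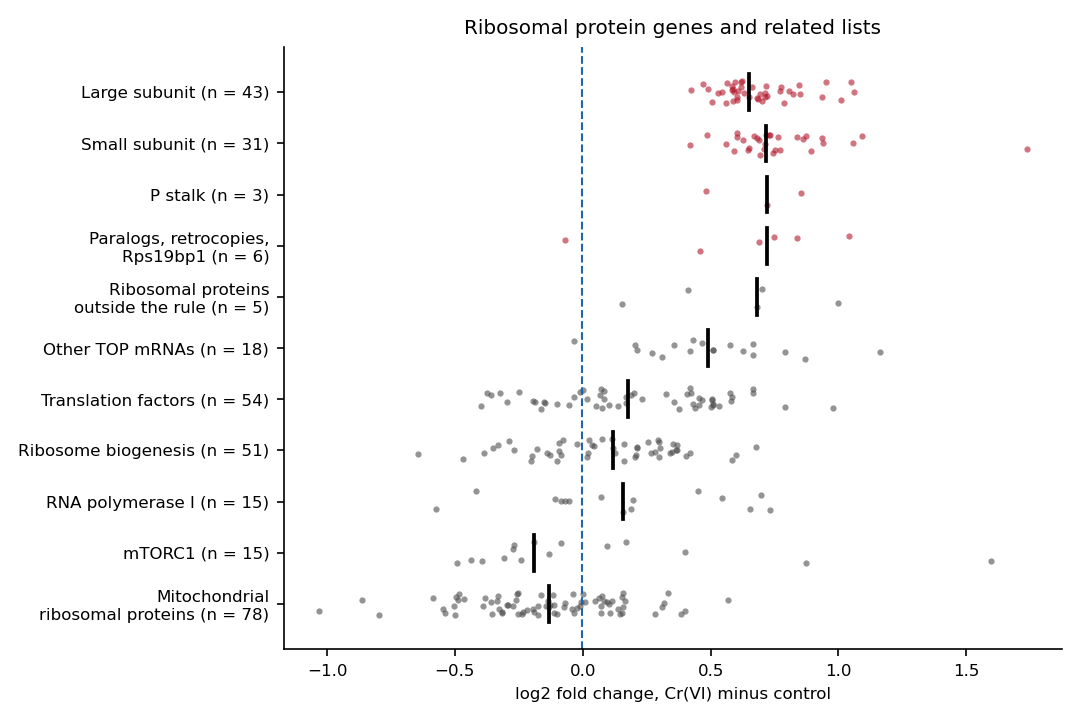
Log2 fold change, Cr(VI) minus control (x axis), of the genes in each list (y axis), with a point for each tested gene, a black bar at the list's median and a dashed line at the median of all tested genes. The subunit medians are 0.65 and 0.72, and that of mitochondrial ribosomal proteins is -0.13.

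Exon length moved with the differences, and GC content did so among other genes. The members had a median exon length of 740 bp, a GC content of 51.1% and a control CPM of 586.5, against 2944 bp, 50.2% and 26.1 over all tested genes. Among other genes with a control CPM of at least 100, the median log2 fold change was 0.39 for the 11 genes up to 500 bp, 0.19 for 105 genes from 500 to 1000 bp, 0.11 for 425 genes from 1000 to 2000 bp and -0.13 for 693 genes from 4000 to 8000 bp. For members of the same level it was 0.83 for 14 genes up to 500 bp, 0.71 for 42 genes from 500 to 1000 bp and 0.62 for 19 genes from 1000 to 2000 bp. It was 0.65 for 4 members from 2000 to 4000 bp and 0.48 for the 1 member from 4000 to 8000 bp. The trend of the other genes was present in Cr(VI) library 2, where their medians ran from 0.66 up to 500 bp to -0.32 over 8000 bp, while in Cr(VI) library 1 they lay between -0.11 and 0.06. Other genes of any level with a GC content over 55% had a median of 0.16, and those up to 45% one of -0.11. In members the medians from the lowest to the highest of 4 GC classes were 0.69, 0.69, 0.65 and 0.73, with a Spearman rho of 0.10 over the 83 genes. Between control CPM and log2 fold change the Spearman rho was -0.24 in members and -0.11 in other genes. The part of length, GC content, level and library in the members' differences was not tested.

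**Figure D5:**
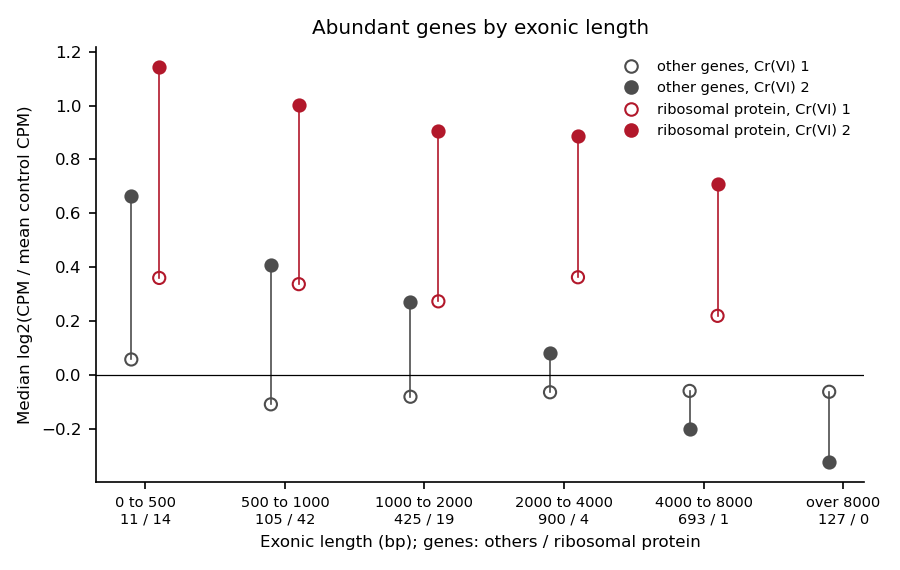
Median log2 of CPM over the mean control CPM (y axis) in classes of exon length (x axis, bp) for genes with a control CPM of at least 100, with open points for Cr(VI) library 1 and filled points for Cr(VI) library 2. Ribosomal protein genes (red) lie above other genes (grey) of the same class in both libraries, and the medians of other genes in library 2 run from 0.66 in the shortest class to -0.32 in the longest.

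Within the members, longer genes had smaller differences, with a Spearman rho of -0.37 between exon length and log2 fold change over 83 genes. The ratio of Cr(VI) library 1 to control library 1 and that of Cr(VI) library 2 to control library 2 had a Pearson r of 0.77 over the 83 members, 0.69 without Rps21, and 0.72 over 13430 other genes. These are descriptions across genes that share libraries.

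Markers of cell types were followed because some of them also moved. Of 8 hepatocyte genes 7 were tested, and Apoa1, with 2 and 9 counts with Cr(VI), was at 0 counts in both controls. Their summed CPM was 5240 and 5834 with Cr(VI) and 2152 and 2214 in controls, with Alb, the serum albumin gene, as the most abundant. Alb rose from 904.6 and 947.5 to 3667 and 3550 CPM (log2 fold change 1.96, SE 0.20, edgeR adjusted p = 0.0316), and Ttr, which encodes transthyretin, rose by 2.46 (SE 0.29, edgeR adjusted p = 0.0332) from 12 and 13 counts. Afp, the fetal albumin-like protein that hepatomas often make, had a CPM of 129.3 and 177.6 with Cr(VI) and 149.1 and 150.6 in controls (log2 fold change 0.03, SE 0.18, edgeR adjusted p = 0.918). Of 4 fibroblast genes the summed CPM was 1204 and 1370 against 652.1 and 662.6, with Dcn as the most abundant, and Dcn rose by 1.16 on the log2 scale (SE 0.14, edgeR adjusted p = 0.0362). Of the other 2 tested, Col1a1 had a log2 fold change of 0.54 (SE 0.24, edgeR adjusted p = 0.209) and Pdgfra one of -0.47 (SE 0.22, edgeR adjusted p = 0.223). Without Cr(VI) library 2 these values were 0.19 and -0.26, and without Cr(VI) library 1 they were 0.84 and -0.72. Of 3 endothelial genes Pecam1 rose by 2.03 (SE 0.29, edgeR adjusted p = 0.0438) from 17 and 19 counts, while the defining gene Cdh5 was at 0 in every library. Kdr, with 5 and 3 counts against 5 and 8, was not tested. Of 4 leukocyte genes Cd3e was at 0, and the summed CPM was 7.83 and 25.4 against 12.9 and 13.4. With control library 1 or control library 2 left out, each of these edgeR calls was lost, with the spread from the Cr(VI) libraries alone and adjusted p from 0.214 to 0.440, while the log2 fold changes were 1.91 and 1.98 for Alb, 2.47 and 2.42 for Ttr, 1.12 and 1.15 for Dcn and 2.02 and 2.01 for Pecam1. Apoe, an apolipoprotein of the hepatocyte list with a log2 fold change of 2.41 (SE 0.61, edgeR adjusted p = 0.0934), was called there, with edgeR adjusted p of 0.0167 and 0.00893. The log2 fold change of Apoe was 1.34 without Cr(VI) library 2 and 3.02 without Cr(VI) library 1. The part of these marker genes in the ribosomal protein result was not tested. In bulk RNA a change in the mix of cells and a change in RNA per cell cannot be told apart.

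FAIRE peaks called with Cr(VI) over control lay at the start sites of few members. Such lists do not show sites that were open in both. In the list of peaks called in cells given 25 µM Cr(VI) over their control, 1 of the 83 genes (1.2%) had a peak centred within 1000 bp of a start, against 1.13% of 20441 protein-coding genes. This was Rpl19, where a peak with a score of 58.4 ran from 98027460 to 98027598 on chromosome 11, with its centre 605 bp from a start. In the list of the 0.5 µM regimen 3 of the 83 genes (3.61%) had one, against 0.954% of all protein-coding genes. These were Rpl37, with a peak on chromosome 15 from 5116194 to 5116945 with a score of 67.5, Rpl35, with a peak on chromosome 2 from 39005045 to 39005658, and Rpl27a, with a peak on chromosome 7 from 109518812 to 109519286. Each of the 3 peaks covered the start. The RNA-seq used here does not cover that regimen. Without a replicate of any FAIRE condition, these counts have no replicate check.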

How the data were processed

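The read counts were deposited as whole numbers per Entrez gene after the authors aligned reads to mm10 with TopHat, and the tool, strand setting and annotation of counting are not given in the sources used here. The peak score was deposited with each FAIRE peak, which the authors called with MACS at default settings in 1 treated library against 1 control after alignment with BWA. Symbols were matched to RefSeq for 23305 of 23403 gene IDs. Of these genes 13619 passed filterByExpr and were tested with edgeR 4.0.16 (TMM, quasi-likelihood, two-sided, Benjamini-Hochberg, threshold 0.05), with DESeq2 1.42.0, a replicate block, other scalings, no filter and each library left out as alternatives. The edgeR fit was tried on simulated counts with a common dispersion in all libraries, so the unequal spread of the Cr(VI) and control libraries was not simulated. The biological coefficient of variation was 0.193. Members and lists were chosen with earlier results of these data known. Named are the 5 largest and 5 smallest log2 fold changes, the 5 highest and 3 lowest levels per kb, the P stalk, Rpsa, Rpl5, Rpl11, members with a FAIRE peak, paralogs and retrocopies, and called genes of the other lists. Fau, Rps15a, Rps20, Afp, Apoa1, Apoe, Col1a1, Pdgfra, Cdh5, Kdr, Cd3e, and the pseudogenes with their parent genes, were named after their values were seen, as were the motifs. Analyses used R 4.3.3, Python 3.11.15, pandas 2.3.3, numpy 2.4.6, scipy 1.17.1 and matplotlib 3.10.9.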

Additional observations from a re-analysis of the deposited data

How the results depend on the processing

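The members' median log2 fold change was above 0 under each alternative, from 0.32 without Cr(VI) library 2 to 0.99 without Cr(VI) library 1. Library size as the only scaling gave 0.57, with the median of all genes at -0.11 and the members 0.68 above it. At least 82 of 83 values were above 0 under each alternative that kept all 83 members. The count of called genes did not hold. DESeq2 called 2073 genes and 39 members, against 631 and 0 by edgeR. Members called were 2 with library size only and 2 without a filter on low counts, where 141 of 13619 and 297 of 18864 genes were called as higher. With each library left out, genes called ran from 287 to 10995 and members called from 0 to 83. Where a Cr(VI) library was left out, the lone one was assumed to vary like the controls, whose spread was small. Without control library 1 or 2, where the spread came from the Cr(VI) libraries alone, edgeR called 294 and 287 genes. Labels share only the numbers 1 and 2. With these as a replicate block edgeR called 2969 genes and 20 members, and same-numbered libraries deviated from their group means with a correlation of 0.134.

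Without the 10 other most abundant genes the mean share was 8.725% with Cr(VI) and 5.814% in controls. With all counted genes it was 8.304% and 5.586%. Members with a FAIRE peak in the 25 µM list were 0 with centres within 500 bp, where 0.636% of protein-coding genes had one. With a score of at least 100 they were 0 in both lists, and 3 and 2 of all 20441 protein-coding genes had one. Of 390 values of named genes under alternatives 3 changed sign, 2 of Afp and 1 of Rpl7l1. Afp was at -0.094 with library size only and ran from -0.21 without Cr(VI) library 2 to 0.25 without Cr(VI) library 1. That of Rpl7l1 was 0.014 without Cr(VI) library 2, -0.15 without Cr(VI) library 1 and -0.17 with library size only. Alternatives chosen after seeing the data were TMM factors from other genes, which gave 628 calls, members without retrocopies, and library size alone for groups that do not overlap. The causes of these differences were not tested. With 2 libraries a group, 1 library decides how far the members lie from the controls.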
